A study of Homo sapiens with 4 samples.

Results

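The expression profile of serum starved A549 cells, a human lung adenocarcinoma line used widely as a model of non-small cell lung cancer (NSCLC), was read from the 1 array of cells given control siRNA, and its genes were ranked by signal. On this Affymetrix Human Genome U133 Plus 2.0 array, 41091 of 54613 probe sets named 1 gene. Each gene was represented by the brightest of the probe sets that named it alone, which gave 19775 ranked genes. The study from which the array comes asked which genes nicotine induces through β-arrestin-1 (ARRB1), a scaffold of G-protein-coupled receptors. It has 4 arrays, 1 for each pairing of an siRNA (control or ARRB1) with a treatment (serum starved, or nicotine at 1 µM for 24 h). All of them hold A549 cells that were transfected with an siRNA and then kept without serum for 36 h. The other 3 arrays were not used, and no condition was compared with another.

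A549 cells come from the type of tumor that arises in the gland-forming and alveolar epithelium of the lung. The line is known for loss of KEAP1 function, which leaves the transcription factor NRF2 (gene NFE2L2) free to switch on detoxifying and antioxidant genes, and for loss of the STK11 and SMARCA4 tumor suppressors and of the CDKN2A locus. It is often used to stand for alveolar type II cells, which make surfactant.

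The signals are linear MAS5 intensities, in arbitrary units, with a mean of 499.9 after the lowest and highest 2% of probe sets were left out. There was 1 array and therefore no replicate error and no test, so that a rank says which probe set was brighter here and not by how much a repeat would differ. Probe sets also differ in affinity for their targets, and signals are not scaled to transcript length, so a rank is an order of hybridization signals rather than of transcript numbers.

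The scale of the array was read from its controls. Control RNAs spiked in at increasing amounts gave 460 to 841 for bioB, 1428 to 1935 for bioC, 3219 to 9566 for bioD and 18786 to 25251 for cre. The probe sets of 1 spiked RNA thus differed by up to 2.97-fold. The 27 probe sets of dap, lys, phe, thr and trpn had a median of 8.63 and reached at most 51.5. Olfactory receptor genes, which serve odor detection in the nose, supplied a reference for genes with little or no RNA. The 82 of them on the array had signals of 2.28 to 194 with a median of 16.4, and their 95th percentile, 101, is called the reference below. A signal at or under it is near background and does not show that a transcript is absent.

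Of the 19775 genes, 11554 lay above the reference and 8221 (41.6%) at or under it. The median gene had a signal of 215, the quartiles were 30.7 and 1218, and the range was 0.212 to 27494. Signals exceeded 1000 for 5601 genes and 10000 for 416. The brightest 10% of genes, a share set by construction, were 1977 genes, bounded by RNF11 at 3397 just inside and LSM8 at 3396 just outside. At the top the curve was flat, since the brightest gene had 1.6 times the signal of the gene at rank 100 and 128 times that of the median gene.

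**Figure D1:**
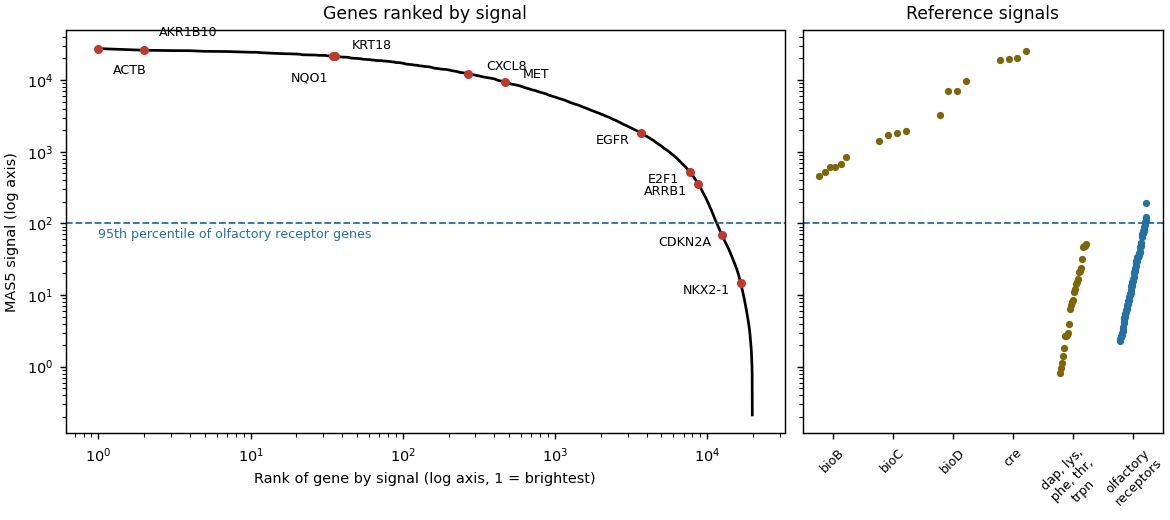
Left, signal (log axis) of the 19775 genes against rank (log axis), with named genes in red and the reference of 101 as a dashed line. Right, signals of spiked controls (bioB to cre), of 27 probe sets of the dap, lys, phe, thr and trpn controls and of 82 olfactory receptor genes on the same axis. The dap, lys, phe, thr and trpn controls all lie under the reference.

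The precision within the array was taken from genes with several probe sets, of which there were 10523. Over these genes the brightest probe set had a median of 9.42 times the signal of the dimmest and 2.7 times that of the next one. The second probe set lay within 2-fold of the first in 38.5% of them. In the brightest 100 genes it did so in 38 of 67 (56.7%). Genes with 1 probe set had a median signal of 54.5 and those with 5 or more had 955, so the number of probe sets moves with the rank. Of the 82 olfactory receptor genes, 62 had 1 probe set, so the reference may be low for genes that take the highest of several.

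ACTB, cytoplasmic actin, came first at 27494, with its other probe sets at 21193 and 21095. AKR1B10, an aldo-keto reductase that reduces aldehydes and retinal, was at rank 2 with a signal of 26062 on its 1 probe set. COX2, here the cytochrome c oxidase subunit encoded in mitochondrial DNA and not the prostaglandin enzyme, followed at 25771. RPS19, a protein of the small ribosomal subunit, had 25672, and TMSB10, an actin-binding thymosin, had 25165. EIF1, an initiation factor that selects the start codon, had 25089.7. Among the 40 brightest genes were also TMSB4X at 24435, the annexin ANXA1 at 23373, the tubulin TUBA1B at 23309, the transketolase TKT at 22394, thioredoxin (TXN) at 21717, ferritin light chain (FTL) at 21569.5, keratin 18 (KRT18) at 21550.3 and the quinone reductase NQO1 at 21439. HSP90AA1, a chaperone, had 21094, and the lactate dehydrogenase subunits LDHB and LDHA had 21018 and 20979.5.

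Of the brightest 100 genes, 38 encoded ribosomal proteins, 10 belonged to the NRF2 programme and 5 lay on the mitochondrial genome. Those last were COX2, ND4 at 24998, ND2 at 22102, ATP6 at 20114 and COX1 at 20064. Of the other 2 mitochondrial genes ranked, COX3 had 2706 and ND6 had 1731, well below the others. Of the brightest 100, 99 were protein coding and 1 was annotated as a pseudogene. Probe sets marked _x_at, which may cross-hybridize with related transcripts, represented 27 of them against 5.62% of all genes, and probe sets marked _s_at, which match several transcripts, represented 44 against 22%.

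**Figure D2:**
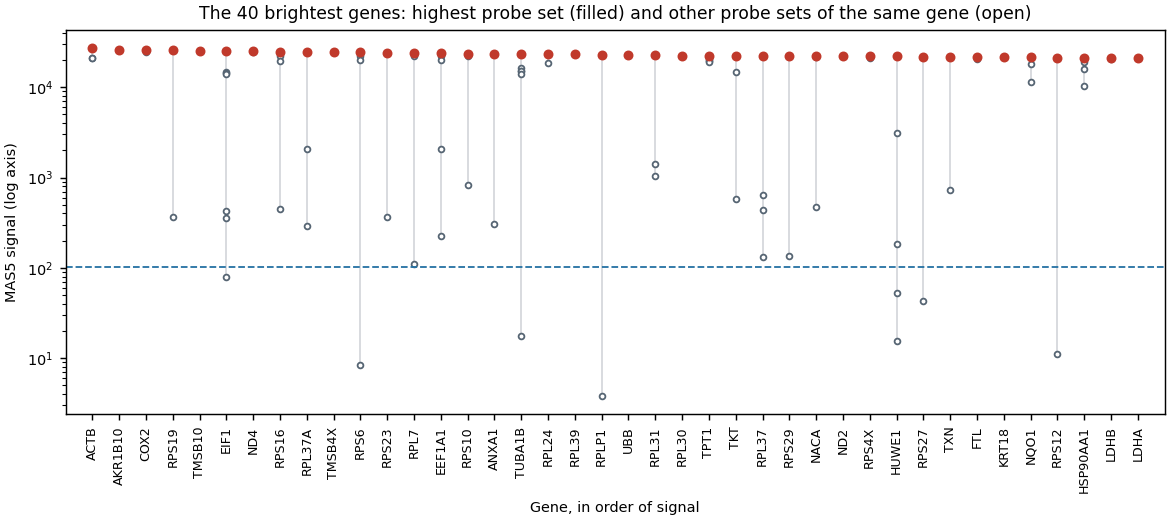
Signals (log axis) of all probe sets of the 40 brightest genes, in order of rank. Filled points are the probe sets that gave the rank (20979.5 to 27494), open points that gene's further probe sets, and the dashed line the reference of 101. HUWE1 has 4 further probe sets, all at or under 3144.

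A wide spread among probe sets marked single genes in this list. HUWE1, a ubiquitin ligase, reached rank 31 with 22066 on an _x_at probe set, whereas its other probe sets had 3144, 183, 52.2 and 15.6. Without _x_at probe sets it stood at rank 2039. The reverse case was a gene whose 1 own probe set was dim. EIF4A2, a translation initiation helicase, had 3.86, and a probe set that names it together with other genes had 11682. RPL27A, a ribosomal protein, had 394 on its own probe set and 23915 when shared probe sets were allowed. Which of these probe sets measures the gene was not tested.

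Cytosolic ribosomal proteins had a median signal of 18579, against 215 over all genes, and 54 of the 60 matched genes were among the brightest 10% of genes. The highest were RPS19, RPS16 at 24787, RPL37A at 24679.9 and RPS6 at 24394. The 2 at or under the reference were RPL36A at 100 and RPL3L, a paralog known from striated muscle, at 3.69. The count rests on the kind of probe set, since 14 remained among the brightest 10% when _x_at and _s_at probe sets were left out. Of 45 translation factors, 30 were in the brightest 10% (16 without those probe sets), led by EIF1, EEF1A1 at 23719 and EEF2 at 16488, the latter a pair of elongation factors that bring aminoacyl-tRNA to the ribosome and move the ribosome along the message. Proteasome subunits, which degrade proteins, had 28 of 34 genes in the brightest 10% (17 without them), led by PSMA1 at 12983, and the testis subunit PSMA8 had 9.94. Mitochondrial ribosomal proteins were dimmer, with 28 of 75 there and a median of 2794.

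The transcripts of ribosomal proteins and elongation factors are known for a 5′ terminal run of pyrimidines, by which the MTOR pathway tunes their translation to growth conditions. The windows below run from 10 bases before to 20 bases from the RefSeq transcription start (GRCh38.p14), are written 5′ to 3′ on the gene's strand, and have in capitals the run that begins at the start. They are shown because most ribosomal protein genes, which fill the top of the ranking, had this feature, and the ranking did not use it.
RPS16 (chr19:39435930-39435959, minus strand): ccctagctttCCTTTTCCggttgcggcgcc
RPL37A (chr2:216498834-216498863, plus strand): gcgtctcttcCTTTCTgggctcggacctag
RPS6 (chr9:19380217-19380246, minus strand): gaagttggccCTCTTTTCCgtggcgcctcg
EEF1A1 (chr6:73521013-73521042, minus strand): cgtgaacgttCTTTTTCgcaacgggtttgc
RPL39 (chrX:119791611-119791640, minus strand): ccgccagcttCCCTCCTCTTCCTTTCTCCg
TPT1 (chr13:45341164-45341193, minus strand): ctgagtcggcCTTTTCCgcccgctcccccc
NQO1 (chr16:69726541-69726570, minus strand): cgtgcactacacacgcgactcccacaaggt
TMSB10 (chr2:84905646-84905675, plus strand): ccgctcttttgtttcttgctgcagcaacgc
The runs had 8 bases in RPS16, 6 in RPL37A, 9 in RPS6, 7 in EEF1A1, 19 in RPL39 and 7 in TPT1, the translationally controlled tumor protein at a signal of 22453. NQO1 at 21439 and TMSB10 at 25165 had none at the annotated start. The ribosomal protein genes RPS29 at 22320.4 and RPS4X at 22092, whose windows are not shown, had none either.

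Among genes with exactly 1 promoter entry in the RefSeq table (11467 of 19775), a start base C followed by at least 4 pyrimidines was found in 515 (4.49%). It was found in 26 of 66 genes of the brightest 100 (39.4%), in 9.77% of the brightest 10% and in 3.2% of genes at or under the reference. By family it was present in 33 of 45 ribosomal protein genes (73.3%) and in 11 of 30 translation factors (36.7%). Promoters of genes at or under the reference also had fewer CpG dinucleotides, with a median of 9 per 300 bases against 27 in the brightest 10% and 23 over all genes, and a lower GC content, with medians of 56.7% and 65% against 63% over all genes. These are descriptions of sequence, and no factor's binding was measured.

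**Figure D3:**
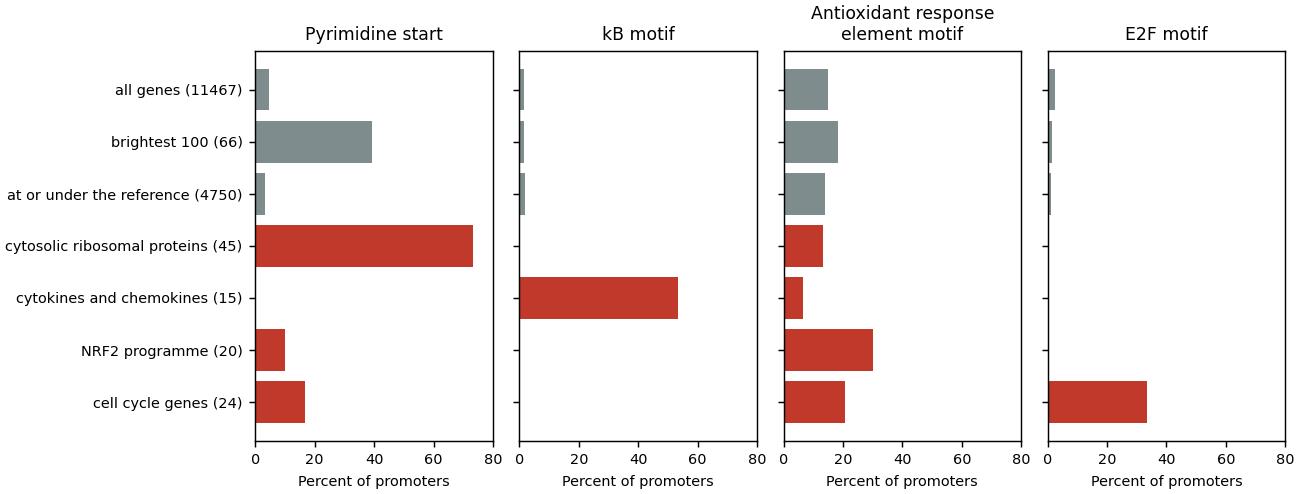
Percent of promoters (horizontal axis, from 0) that hold each sequence feature, for all genes, brightness classes (grey) and gene families (red), with the number of genes that have 1 promoter entry in brackets. The pyrimidine start is found in 73.3% of ribosomal protein genes and 4.49% of all genes, the kB motif in 53.3% of cytokines and chemokines and 1.69% of all genes.

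The NRF2 programme was the list with the largest share of bright genes among the metabolic and signaling lists. The lists were chosen with earlier results of these data known, so this order is a description only. Of 33 genes, 30 were in the brightest 10% (22 without _x_at and _s_at probe sets), and the median signal was 11060.3. None lay at or under the reference, against 41.6% of all genes. AKR1B10 was the brightest of them at 26062, and the related aldo-keto reductases followed with AKR1C3 at 19296, AKR1C2 at 18239 and AKR1C1 at 16469. The AKR1C genes are close copies of each other, and their probe sets may share targets. NQO1, which detoxifies quinones, was bright on each of its probe sets (21439, 18145 and 11524). The aldehyde dehydrogenases ALDH1A1 and ALDH3A1 had 18640.2 and 15437, and ALDH1A1 is also used as a marker of stem-like cells.

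The thioredoxin and glutathione branches of the programme were bright as well. TXN had 21717 on 1 probe set and 732 on the other, the peroxiredoxin PRDX1 had 20238 and thioredoxin reductase (TXNRD1) had 17872 with a second probe set at 13.5. GPX2, a glutathione peroxidase of epithelia, had 14927. The subunits of the enzyme that limits glutathione synthesis, GCLM and GCLC, had 11060.3 and 8551, and the cystine transporter SLC7A11 had 9445. Of the pentose phosphate enzymes that supply NADPH, TKT had 22394, PGD 13421 and TALDO1 12526, and the NADPH sources IDH1 and ME1 had 11361 and 7129. NFE2L2 itself had 7601 on its brightest probe set and 73.6 and 41.2 on the others, and KEAP1, its inhibitor, had 2014.

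The dimmest of the 33 were ABCC2, an efflux pump, at 2919, CBR1, a carbonyl reductase, at 2349.9, and OSGIN1 at 485. These lay outside the brightest 10% and above the reference.

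NRF2 binds the antioxidant response element, searched here as TGACNNNGC on both strands of the window from 250 bases before to 50 bases after the start. The motif was in 6 of 20 promoters of the list (30%), against 15% of all promoters and 19.2% of those of the brightest 10%. Examples follow with 20 bases on each side and the match in capitals, since they belong to bright genes of the programme. In ME1 the match reads on the printed strand and in the others on the opposite one.
GCLM (chr1:93909436-93909484, minus strand): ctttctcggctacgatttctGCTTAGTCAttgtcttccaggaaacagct
GPX2 (chr14:64942839-64942887, minus strand): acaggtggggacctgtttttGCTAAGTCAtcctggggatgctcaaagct
ME1 (chr6:83431160-83431208, minus strand): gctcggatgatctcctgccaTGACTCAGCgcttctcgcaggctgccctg
The matches began 34, 122 and 137 bases before the start, and AKR1B10 had no entry in the promoter table. A match was also in the promoters of PGD, PIR and CBR1, the last of which had a signal of 2349.9. The brighter NQO1, TXN, TKT, FTL, ALDH1A1, AKR1C1 and AKR1C2 had no match in this window. The motif is short, a match says only that these letters are present, and no motif searched here lies within another.

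**Figure D4:**
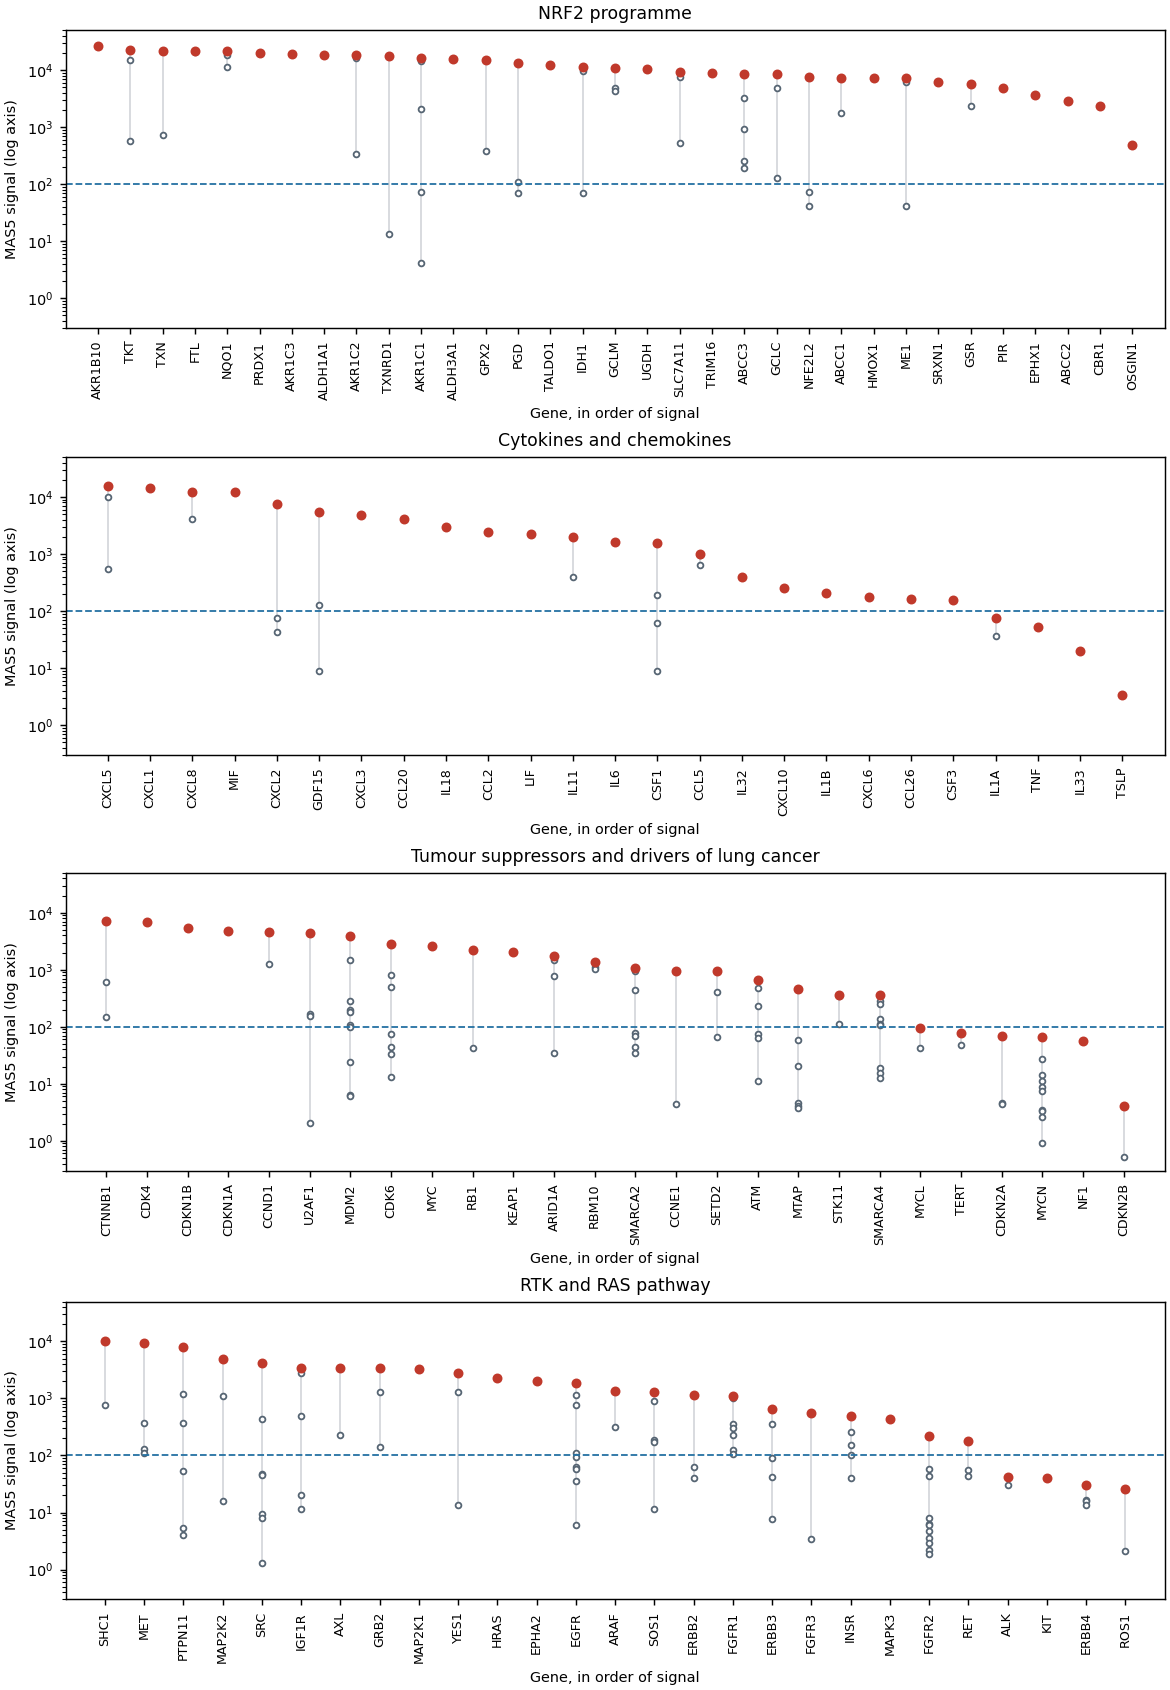
Signals (log axis) of the genes of 4 lists, in order of signal, with filled points for the probe set that gave the rank, open points for the gene's other probe sets and a dashed line at the reference of 101. All 33 NRF2 genes lie above the line, and CDKN2A, CDKN2B, KIT, ALK and TNF are among the genes under it.

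Energy metabolism was represented by bright probe sets along glycolysis, the tricarboxylic acid cycle and the respiratory chain. Of 19 glycolysis genes, 11 were in the brightest 10%, with LDHB and LDHA followed by GAPDH at 18349, the aldolase ALDOA at 17165 and the enolase ENO1 at 16856. Without _x_at and _s_at probe sets 3 remained there. The glucose transporter SLC2A1 had 1085, HK1 had 1397, and HK2, the inducible hexokinase, had 56.8 with no probe set above the reference. Of 66 respiratory chain subunits, 57 were in the brightest 10%, led by ATP5F1E at 18143 and COX6A1 at 17899.5, and 30 remained without _x_at and _s_at probe sets. Of 19 genes of the tricarboxylic acid cycle, 12 were (6 without those probe sets), led by the malate dehydrogenases MDH2 at 14325 and MDH1 at 11515, and pyruvate carboxylase (PC) was the dimmest at 302.

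Lipid synthesis was among the brighter pathways, with 11 of 16 genes in the brightest 10%. None was at or under the reference, against 41.6% of all genes. SCD, which desaturates stearate, was at rank 44 with 20749, ACLY, which makes cytosolic acetyl-CoA, had 12218, and FASN, the fatty acid synthase, had 4706. The sterol enzymes FDPS and SQLE had 8889 and 8608. In nitrogen and one-carbon metabolism, 6 of 21 genes were in the brightest 10%, among them the serine enzyme PSAT1 at 8497 and the folate enzyme MTHFD2 at 8045. CPS1, the first enzyme of the urea cycle and an enzyme of liver, had 2552 and 1622 on its probe sets. The later cycle enzymes were mixed, with ASS1 at 6083 and ASL at 391, whereas ARG1 and OTC had 6.97 and 1.08.

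Chemokines that attract neutrophils were the brightest of the listed cytokines. CXCL5 had 15375, 10019 and 538 on its probe sets, CXCL1 had 14118, and CXCL8 (interleukin 8) had 12233 and 4174. CXCL2 had 7451 on an _x_at probe set and 75.1 and 42.5 on others under the reference, and CXCL3 had 4806 on its 1 probe set. These close relatives of CXCL1 may share probe targets. MIF, an inhibitor of macrophage migration, had 12032, the stress cytokine GDF15 had 5477 on an _x_at probe set with 128 and 8.83 on others, and CCL20, which attracts lymphocytes, had 4119. These 8 of 25 listed cytokines were in the brightest 10%, and 5 remained there without _x_at and _s_at probe sets.

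Other inflammatory mediators were of middle rank or near background. CCL2 had 2397, LIF 2278 and IL6 1612. The interleukin 1 genes had 204 (IL1B) and 75 (IL1A). TNF had 51.4, IL33 20.2 and TSLP 3.31, all under the reference.

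Several chemokine promoters carry a binding site for the NF-κB factors close to the start, searched here as GGANTTTCC on both strands. It was present in 8 of the 15 cytokine promoters with 1 entry (53.3%) and in 1.69% of all promoters. The windows are shown for 6 of these genes, with the match in capitals and on the printed strand.
CXCL5 (chr4:73998739-73998787, minus strand): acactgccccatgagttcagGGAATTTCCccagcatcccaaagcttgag
CXCL1 (chr4:73869295-73869343, plus strand): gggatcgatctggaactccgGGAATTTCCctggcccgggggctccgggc
CXCL8 (chr4:73740458-73740506, plus strand): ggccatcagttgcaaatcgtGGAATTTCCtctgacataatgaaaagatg
CXCL2 (chr4:74099244-74099292, minus strand): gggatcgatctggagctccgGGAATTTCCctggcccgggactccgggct
CXCL3 (chr4:74038739-74038787, minus strand): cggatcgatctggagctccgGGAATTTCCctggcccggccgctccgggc
IL6 (chr7:22727108-22727156, plus strand): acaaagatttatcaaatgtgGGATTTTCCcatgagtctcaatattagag
The match began 90, 78, 91, 77, 78 and 72 bases before the start, in the order given. A match was also in the promoters of CXCL6 and CXCL10, whose signals were 177 and 256, so promoters with the motif belonged to bright and to dim genes. IL1B, IL11, TNF, CCL20, CCL26, MIF and GDF15 had no match in this window. A TATA box, searched as TATAAA on the gene's strand from 40 to 20 bases before the start, was in 4 of the 15 (26.7%) and in 3.54% of all promoters.

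Further secreted products were bright. DKK1, an inhibitor of Wnt signaling, had 16697, and SPP1, the matrix protein osteopontin, had 16666 with a second probe set at 304. Of 27 genes listed as secreted proteases and inhibitors, 10 were in the brightest 10%. The cathepsin CTSL had 14082, the iron-siderophore carrier LCN2 14060.3, and the metalloprotease inhibitors TIMP1 and TIMP2 10523 and 10043. The metalloproteases were dimmer, with MMP7 at 2770, MMP2 at 245, MMP9 at 134, MMP1 at 44.5 and MMP3 at 7.93. Of 25 genes listed as extracellular matrix, IGF-binding proteins among them, 8 were in the brightest 10% (5 without _x_at and _s_at probe sets). These included TGFBI at 14088, IGFBP4 at 11546 and the laminin chain LAMB1 at 7338, while tenascin (TNC) had 49.6.

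Of 29 genes listed as secreted growth factors, DKK1 among them, 3 were in the brightest 10%, a share of 10.3%. With the median of a gene's probe sets 1 was. After DKK1 came endothelin (EDN1) at 3748 and the ERBB ligand NRG1 at 3472. Other ligands of EGFR and its relatives were EREG at 2893, TGFA at 1119.5, BTC at 372, HBEGF at 357 and EGF at 92.5. VEGFA, the angiogenic factor, had 1684, and HGF, the ligand of MET, had 129. SCF (gene KITLG), the c-Kit ligand, had 1847, 34.9, 1.56 and 0.722 on its 4 probe sets, so its rank rests on the first.

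Of 31 plasma proteins typical of liver, 3 (9.68%) were in the brightest 10% and 14 (45.2%) at or under the reference, shares close to those of all genes (10% and 41.6%). IGFBP1 had 13229, complement C3 10607 and complement factor B (CFB) 3924. The 3 fibrinogen chains were all well above the reference, at 1937 (FGB), 1840.1 (FGG) and 1027 (FGA). ALB, encoding albumin, had 22.1 and none of its 4 probe sets was above the reference, and APOA1, TTR, TF, APOB and HP had 52.1, 51.1, 21.1, 9.77 and 8.01.

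Transcription factors of endoderm were of middle rank. CEBPB, which is induced in inflammation and lipid synthesis, was the 1 of 16 in the brightest 10%, at 14294. SOX9 had 2177, NR5A2 2105, KLF5 2059, FOXA2 1271, FOXA1 298, GATA6 282 and HNF4G 198. Those at or under the reference were NR0B2, PROX1 and CREB3L3.

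**Figure D5:**
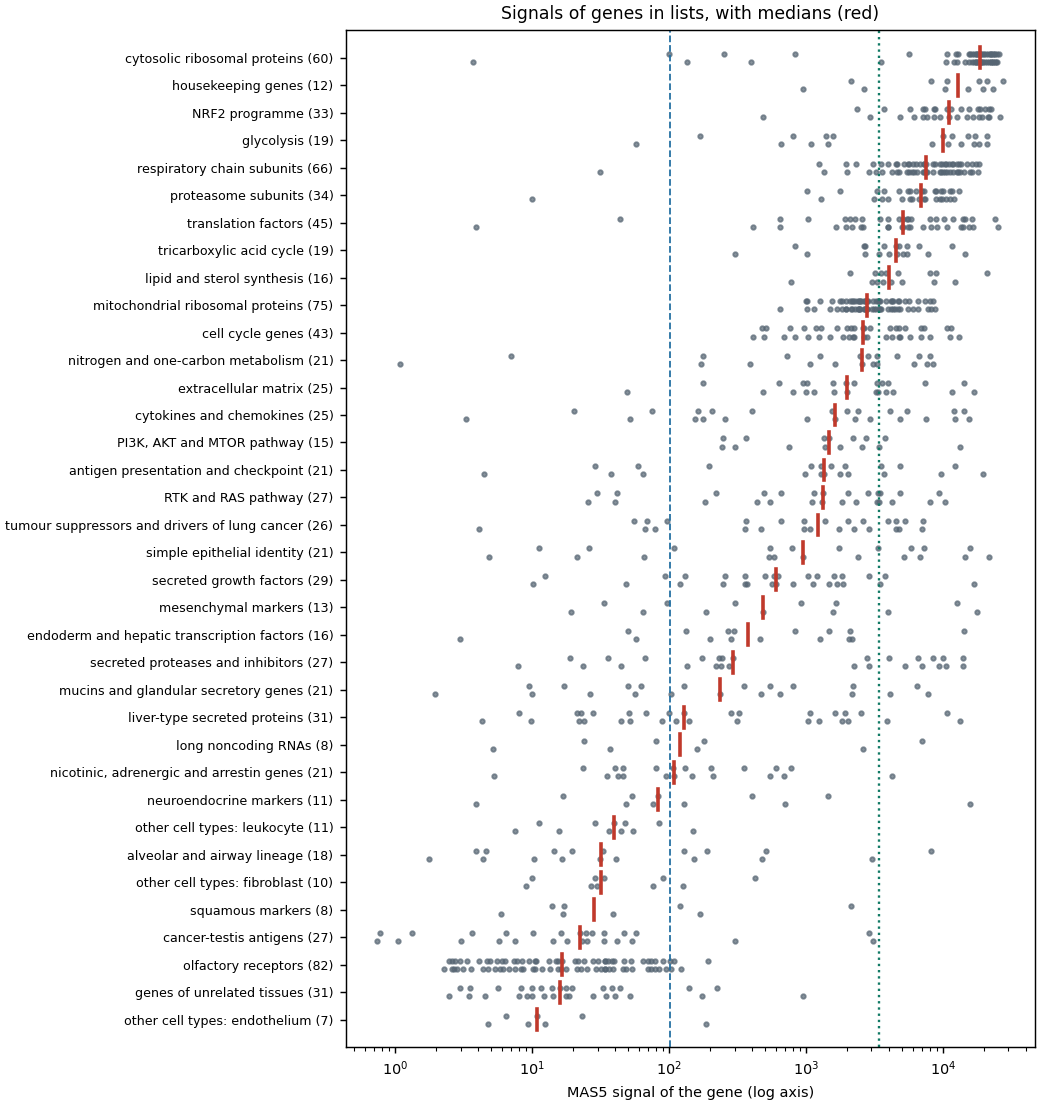
Signal (log axis) of every ranked gene (points) in each list, with the number of genes in brackets and the list median in red. The dashed line is the reference of 101 and the dotted line the signal that bounds the brightest 10% of genes, 3397. Ribosomal proteins have the highest median (18579) and endothelial genes the lowest (10.8).

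Keratins of simple epithelia were among the brightest genes. KRT18 had 21550.3, KRT8 15599.8 and KRT7 14537, and the last had other probe sets down to 31.5. Of 21 epithelial genes, 7 were in the brightest 10%, among them also the junction proteins TJP1 at 7219.6, DSP at 6732, JUP at 5799 and E-cadherin (CDH1) at 5218, and 4 remained without _x_at and _s_at probe sets. EPCAM had 538 and KRT19 had 944. Not every epithelial gene was above the reference, since the splicing factor ESRP1 had 26.1, CLDN4 21.1, the transcription factor GRHL2 11.2, CLDN7 4.88 and the protease ST14 65.9.

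Genes that define alveolar and airway cells were mostly near background. Of 18, 11 (61.1%) lay at or under the reference, against 41.6% of all genes. NKX2-1, the lineage factor of the lung, had 14.5 and 4.18 on its probe sets. Its targets, the surfactant proteins, had 189 (SFTPB), 153 (SFTPC) and 4.58 (SFTPD), and the probe sets shared by SFTPA1 and SFTPA2 had 27.8 and 3.36. SFTPB lay above the reference on 2 of 4 probe sets and SFTPC on 1 of 5. The club cell genes SCGB1A1 and SCGB3A2 had 3.91 and 1.75, and the aquaporin AQP5 had 10.4. The brighter members were the caveolin CAV1 at 8197, LPCAT1, which makes surfactant phospholipid, at 3042, LAMP3 at 510, and ABCA3, the lipid pump of lamellar bodies, at 475. The line thus had bright probe sets for KRT18, KRT8 and KRT7. Its alveolar and airway genes were mixed, with 7 of 18 above the reference. NKX2-1 and SFTPD lay under it, and LPCAT1, LAMP3 and ABCA3 above it.

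None of 8 squamous genes was in the brightest 10%, and KRT5 and KRT14 had 13.9 and 16.7, whereas SOX2 had 2139. Of 11 neuroendocrine genes, the 1 in the brightest 10% was UCHL1, a ubiquitin hydrolase of neurons, with 15719.6 on an _s_at probe set and 466 on the other. Of the 11, 6 (54.5%) lay at or under the reference, against 41.6% of all genes, and 5 above it. CHGA, SYP and INSM1 had 76.0, 48.6 and 16.7, whereas CHGB had 701 and DDC 404. Of 13 mesenchymal genes, S100A4 at 17579, vimentin (VIM) at 12687 and fibronectin (FN1) at 3950.2 were in the brightest 10%. Without _x_at and _s_at probe sets 0 of the mesenchymal and 0 of the neuroendocrine genes remained there. ZEB1 had 1651 and N-cadherin (CDH2) 1583, and SNAI1 and SNAI2 had 19.2 and 64.8. The highest probe sets of both cadherins thus lay above the reference. E-cadherin had 5218 and 64.5 on its probe sets, the second under the reference, and N-cadherin had 1583 and 312.

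Mucins and glandular products included AGR2, a disulfide isomerase of mucus-secreting cells, at 7720.1, the glycosyltransferase GCNT3 at 6489 and S100P at 4068. MUC5B had 2199.5 with its second probe set at 4.93, MUC5AC had 644, MUC1 543, and MUC2, MUC4 and MUC16 had 62.8, 56.2 and 9.98.

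Of the receptor tyrosine kinases and the RAS pathway, 6 of 27 genes were in the brightest 10%. At or under the reference were 4 (14.8%), against 41.6% of all genes. The adaptor SHC1 had 10353, and MET, the hepatocyte growth factor receptor, had 9388 on 1 probe set and at most 368 on 3 others. The phosphatase PTPN11 had 7965, the kinases MAP2K2 and SRC had 4822 and 4201, and IGF1R had 3464. EGFR had 1835, 1142 and 761 on its brightest probe sets and 6.08 to 112 on 6 others. AXL had 3396, EPHA2 2015, ERBB2 1147, FGFR1 1098 and ERBB3 655. The 4 near background were ALK at 41.3, KIT at 40.1, ERBB4 at 29.9 and ROS1 at 25.4. KIT is the receptor of SCF, so that the ligand lay above the reference and the receptor, on its 1 probe set, under it.

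In the PI3K and MTOR pathway, the GTPase RHEB had 13377, the S6 kinase RPS6KB1 3747 and RICTOR 3415, and these were the 3 of 15 in the brightest 10% (1 with the median of a gene's probe sets). AKT2 had 2751 and AKT1 1479. None was at or under the reference, against 41.6% of all genes. MTOR, the kinase itself, was the dimmest at 241 with a second probe set at 10.9.

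Tumor suppressors and drivers of lung cancer ranged from 4.07 to 7115. Of 26, 7 were in the brightest 10%, namely CTNNB1 at 7115, CDK4 at 6992, CDKN1B at 5294, CDKN1A at 4735, CCND1 at 4541, U2AF1 at 4496 and MDM2 at 3945. MYC had 2596, RB1 2218 with a second probe set at 41.9, and KEAP1 2014. CDKN2A, the CDK4 inhibitor locus, had 69.0, 4.60 and 4.48, and its neighbour CDKN2B had 4.07 and 0.531, all under the reference. MTAP, which lies beside them, had 466 on 1 probe set and 3.77 to 58.6 on 5 others. STK11 had 365, 347 and 113, and SMARCA4 had 355 on the brightest of 9 probe sets, with 6 of them above the reference. A signal for a message says nothing of the protein's function. MYCL, TERT and MYCN had 96.9, 79.2 and 66.3.

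Cell cycle genes had signal in cells kept without serum for 36 h. Above the reference were 43 of 43, against 58.4% of all genes, and 17 were in the brightest 10%. PCNA, the polymerase clamp, had 13076, CDK1 11506, TYMS, which makes thymidylate, 11265, and TOP2A 8009. CCNB1 had 6949, the reductase subunit RRM2 6877, and MKI67, the proliferation antigen, 1668. The CDK inhibitors CDKN1B and CDKN1A had 5294 and 4735. E2F1, through which the study sees nicotine act on SCF, had 513 and 362 on its probe sets. E2F2 had 687, 62.8 and 6.89, E2F3 1234 and 158, E2F4 1028 and 298, and E2F5 1288 and 75.7. Cells in serum were not analysed here, so the effect of starvation on these signals was not tested. The E2F site, searched as TTTNGCGC on both strands, was in 8 of 24 promoters of the list (33.3%) and in 2.37% of all promoters, among them those of MCM2, MCM3, MCM6, CDC6 and E2F1 itself.

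Of 21 nicotinic, adrenergic and arrestin genes, which the study concerns, SRC was the 1 in the brightest 10% (0 with the median of a gene's probe sets). Of the list 9 (42.9%) lay at or under the reference, close to the 41.6% of all genes. CHRNA5, a nicotinic subunit, had 770, CHRNB2 208, CHRNA3 106, CHRNA9 95.3 and CHRNB4 23.3. The probe set shared by CHRNA7, the α7 subunit, and CHRFAM7A had 136. ARRB1 had 352, 224, 187, 170 and 163 on 5 probe sets above the reference and 54.1 and 19.9 on 2 under it. The kinases that prime receptors for arrestin, GRK5, GRK2 and GRK6, had 694, 607 and 543, and ADRB1 had 147.

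Genes of antigen presentation separated by class. The class I chain B2M had 19538, HLA-C 12114, HLA-B 9713 and HLA-E 3521, whereas the class II genes HLA-DPA1, CD74 and HLA-DRA had 64.3, 59.3 and 4.43 and their activator CIITA had 28.6. CD47, a signal against phagocytosis, had 4878, and CD274, encoding the checkpoint ligand PD-L1, had 196 and 77.0. HLA probe sets may read several class I genes at once.

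Genes of other cell types and tissues supplied the low end. The counts that follow stand against 41.6% of all genes at or under the reference. Of 31 genes of unrelated tissues, 27 were at or under the reference, among them insulin (INS) at 3.49, glucagon (GCG) at 2.49, the muscle kinase CKM at 2.97 and the glial protein GFAP at 27.9. The 4 above it were MBP at 945, PF4 at 224, PAX7 at 172 and HBB at 139. Of 10 fibroblast, 7 endothelial and 11 leukocyte markers, 8, 6 and 10 were at or under it, with the leukocyte antigen PTPRC at 7.51, the endothelial cadherin CDH5 at 4.74 and PDGFRA at 10.0. The exceptions were COL1A1 at 425, THY1 at 126, PECAM1 at 186 and CD79A at 149. Of 27 cancer-testis antigens, 24 were at or under it, and MAGEA6 at 3090.5, PRAME at 2853 and MAGEA12 at 304 were not. Among 8 long noncoding RNAs, MALAT1 had 7008 and TUG1 2603, and HOTAIR and UCA1 had 24.0 and 5.16.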

How the data were processed

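The authors hybridized biotinylated cRNA from total RNA to the array and deposited linear MAS5 signal intensity values, by the submitters' processing notes made in GCOS 1.4, although the paper credits Expression Console software. The log2 transformation and centring described in the methods are not in the deposited values. Of 54675 probe sets, 62 controls were left out. A table of probe sets and genes gave 1 gene for 41091, several for 1801 and none for 11721. The columns of the other 3 arrays were not used, and some genes are not reported here. A gene took its highest probe set. The reference was the 95th percentile of olfactory receptor genes. Promoters came from RefSeq (GRCh38.p14). Alternatives were the median probe set, leaving out _x_at, or _x_at and _s_at, probe sets, adding shared probe sets, and 2 other references. Python 3.11.15, numpy 2.4.6, pandas 2.3.3 and matplotlib 3.10.9 were used, and the steps were tested on simulated data. The 40 brightest genes and any list member could be named. Genes and lists were chosen with earlier results of these data known. No test was made, as no replicate exists, and the single array limits the precision.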

Additional observations from a re-analysis of the deposited data

How the results depend on the processing

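The ranking was repeated with 4 other ways to represent a gene. Of the 100 brightest genes, 65 stayed in the brightest 100 with the median of a gene's probe sets and 76 without _x_at probe sets. The number was 31 without _x_at and _s_at probe sets. It was 47 when probe sets that name several genes were given to each of them. Part of this follows by construction, since leaving out _x_at and _s_at probe sets leaves 17098 genes and shared probe sets raise the number to 21357. The number of alveolar and airway genes in the brightest 10% was 2 in place of 1 with the median and 2 without _x_at and _s_at probe sets. Without the latter, the counts were 5 in place of 8 for cytokines, 14 in place of 54 for ribosomal proteins, 3 in place of 11 for glycolysis and 4 in place of 7 for epithelial genes. Over 35 lists and these alternatives, 115 of 140 counts stayed within 1.5 times of the reported one, 5 were higher and 20 lower. The squamous, fibroblast, endothelial, leukocyte and unrelated tissue lists had 0 in every setting, so those counts could not fall. The count of genes above the reference, 11554, ranged from 8709 to 12701 over 6 alternatives, including the 99th percentile of olfactory receptors (10910) and the median signal of all probe sets (12494). No paired analysis was possible because a single array was used. With 1 array, signal over background limits what can be ranked: genes at or under the reference have no reliable order.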

Other observations

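Several genes among the brightest 200 belonged to none of the lists and were chosen after their values were seen. AMIGO2, a cell adhesion protein, was at rank 43 with 20811. PON2, a lactonase, had 19896 and 17671 on its 2 brightest probe sets, KYNU, an enzyme of tryptophan breakdown, had 18708 and 15832, and TM4SF1, a membrane protein of the tetraspanin type, had 18662 and 13467. CD24, a surface glycoprotein, had 18776 and 17634. MGST1, a microsomal glutathione transferase, had 17855 and 17377. HIF1A, the oxygen-regulated transcription factor, had 17534 on its 1 probe set. NTS, the precursor of the gut peptide neurotensin, had 17471 on its 1 probe set. CA12, a carbonic anhydrase of the cell surface, had 16026 and 14563, and PAPPA, a protease that cleaves an IGF-binding protein, had 13982 and 13154 on the brightest of its 11 probe sets. For PON2, KYNU, TM4SF1, CD24, MGST1, CA12 and PAPPA a second probe set was thus also far above the reference of 101.

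Some probe sets gave signals outside the ranking. Among controls, the ratio of 3′ to 5′ probe set signals was 1.31 for ACTB (20724 and 15803) and 0.915 for GAPDH (19846 and 21683). Probe sets that name several genes were not ranked, and among them were VTN, a plasma adhesion protein listed with SEBOX, at 3872, FADS1, a fatty acid desaturase listed with a microRNA, at 11145 to 12828, and NEAT1, a nuclear noncoding RNA, at 49.1 to 11906 on its 9 probe sets.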
